A study of Macaca mulatta with 24 samples.

Results

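Gene expression was compared between primary motor cortex (M1) and dorsal premotor cortex (PMd) of adolescent rhesus monkeys (Macaca mulatta). The comparison used 12 of the 24 arrays of the study, 6 labelled M1 and 6 labelled PMd in their titles. The left and right pieces of each animal were averaged, which left 3 pairs of M1 and PMd values matched by animal number. M1 was dissected as its forelimb region near the superior genu of the central sulcus. PMd came from the caudal bank of the upper arcuate limb together with the convexity in front of M1. Both areas were taken from the same animals, which had lived in group cages and had received no experimental treatment. Animals 1 and 2 were males aged 2.7 and 2.6 years, and animal 3 was a female aged 2.7 years. All were perfused with heparinised saline under an overdose of pentobarbital, so both areas share that preparation. The other 12 arrays, from ventral premotor cortex (PMv) and prefrontal area A46, entered the model to estimate the spread and are shown where they place M1 and PMd among the areas.

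M1 holds the large layer 5 pyramidal neurons whose thick, heavily myelinated axons descend to the brainstem and spinal cord, and it has a thin or indistinct granular layer 4. PMd lies directly in front of it, receives input from parietal and prefrontal cortex, and takes part in the preparation and selection of arm movements. Myelin in cortex is made by oligodendrocytes, and large projection neurons depend on neurofilaments for the calibre of their axons.

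Each value is the log2 of an array intensity, summarised per probe set by RMA (robust multi-array average), and a difference of 1 on this scale is a 2-fold difference. RMA gives all arrays a like distribution, so a shift of all transcripts together cannot be seen. The number of arrays, and above all the 3 animals, limits the precision. Array medians lay between 47.92 and 51.67 intensity units. The M1 and PMd arrays correlated at 0.971 to 0.995 over their 66 pairs, and none duplicated another. The neuronal markers NRGN (neurogranin, 12.71 to 13.11 on all 12 arrays) and SYT1 (synaptotagmin 1, 12.43 to 12.81) were high in both areas. The log2 difference of 3′ minus 5′ actin signal, which reflects how intact the RNA is, was similar in both areas. It was 0.94 ± 0.05 for M1 and 0.99 ± 0.15 for PMd (SD, n = 3 animals), so the 3′ signal was the higher one. The arrays of right PMd of animal 3 and left M1 of animal 2 stood at the edge of their groups for several genes below, so counts are also given without them.

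The named genes with the largest called differences on the higher side of M1 were ANLN, SPP1, UGT8, RFTN2, SLC25A17, ABCA8 and NEFH. Those lower in M1 were led by DIAPH3, FREM3 and EPHA3 and included 3 immediate early genes. limma called 87 of 26383 probe sets at a Benjamini-Hochberg adjusted p under 0.05, which is 0.33% of those tested. Of these, 45 (0.171%) were higher and 42 (0.159%) were lower in M1. The higher ones carried the names of 30 genes and the lower ones of 27. Only 1 called probe set, one for ANLN, passed 2-fold. The count depends on the samples and terms of the model, and was 1582 with M1 and PMd alone. It was 647 with the interquartile range of each animal-by-area mean as a covariate, and 433 with 24 arrays and the pair as a random block. The median log2 difference was 0.62 among the higher and -0.52 among the lower probe sets, against -0.01 over all 10043 genes, for which the 5th and 95th percentiles were -0.16 and 0.17.

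Every one of the 87 probe sets had the same sign in all 3 animals and in all 6 hemisphere pairs. They were called on these same values, so selection favours this agreement and it is no separate support. In 27 of the 45 higher ones all 6 M1 arrays lay above all 6 PMd arrays, a pattern found in 161 (0.61%) of all probe sets tested. In 30 of the 42 lower ones all M1 arrays lay below all PMd arrays, found in 160 (0.606%) of all. Without animal 2, 0 probe sets passed and 679 had an unadjusted p under 0.05, against 2053 with all animals. The 87 differences then had a median of 0.56 for the higher and -0.46 for the lower ones, against 0.62 and -0.52 with all animals. The median SE went from 0.1 to 0.12 and from 0.08 to 0.11. All 87 kept their sign, which was fixed in advance because all 3 animals had the same sign. Without animal 1, 33 were called, and without animal 3, 239. Animal 2 had the largest of the 3 differences in 31 of the 45 higher and 29 of the 42 lower probe sets, and in 38.8% of all probe sets. Without right PMd of animal 3 the count was 41, without left M1 of animal 2 it was 59, and without both arrays it was 16, all of them among the 87. These alternatives were chosen after the values were seen.

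**Figure D1:**
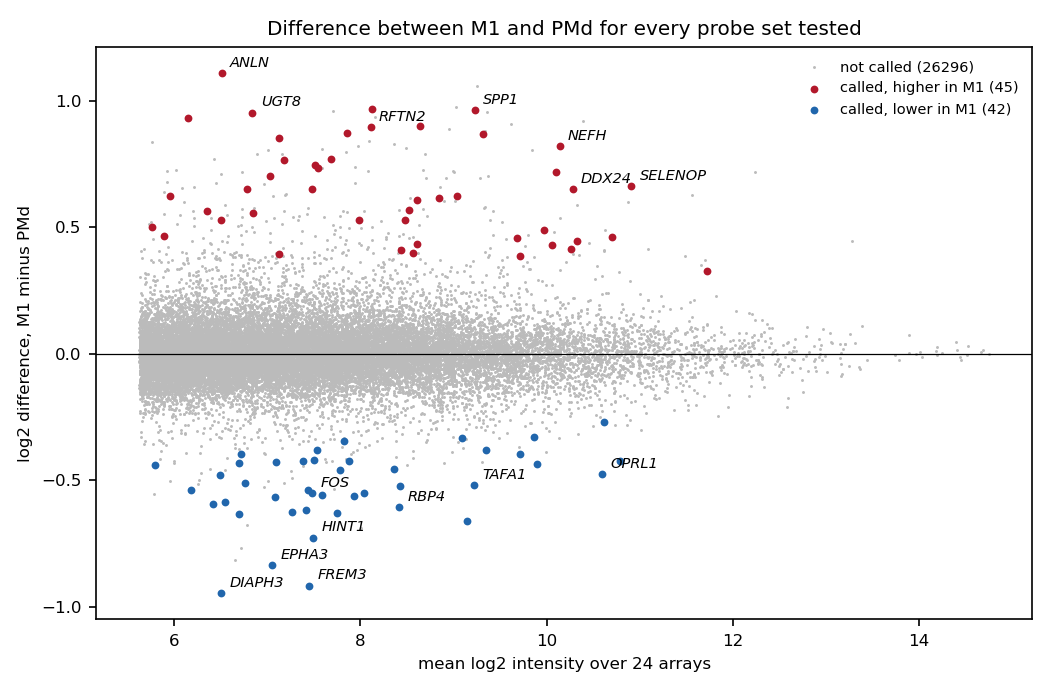
Log2 difference between M1 and PMd (vertical axis) against mean log2 intensity over 24 arrays (horizontal axis) for the 26383 probe sets tested. The 45 red points are called higher and the 42 blue points lower in M1, and most of them lie within 1 log2 unit of 0.

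Several genes called higher in M1 are known from myelin. UGT8, which synthesises galactosylceramide for the myelin sheath, read 6.86, 6.81 and 6.83 in PMd of animals 1, 2 and 3 and 7.6, 8.09 and 7.68 in M1. The 6 M1 arrays lay above the 6 PMd arrays, and M1 exceeded PMd by 0.95 (SE 0.14, limma adjusted p = 0.0221). A second UGT8 probe set with a higher mean differed by 0.98 and did not pass (adjusted p = 0.0708). GJB1, the connexin 32 gap junction protein of myelinating cells, read 7.84, 7.61 and 7.35 in PMd and 8.38, 8.59 and 8.03 in M1, again without overlap of the arrays (0.74, SE 0.12, adjusted p = 0.0258). BCAS1, a marker of oligodendrocytes that are forming myelin, read 7.58, 8.03 and 7.78 in PMd and 8.02, 8.97 and 8.71 in M1. Its arrays overlapped because animal 1 was low in both areas, while the difference within animals was 0.77 (SE 0.12, adjusted p = 0.0258). In bulk tissue, fewer cells of a type and less RNA per cell cannot be told apart.

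ANLN, the actin-binding protein anillin, which is abundant in myelinating oligodendrocytes, had the largest named difference. It read 6.95, 6.61 and 6.33 in PMd and 7.6, 7.91 and 7.72 in M1, which is 1.11 higher in M1 (SE 0.21, adjusted p = 0.045). All 3 of its probe sets were higher in M1 and 2 passed. ENPP2, the lysophosphatidic acid-producing enzyme autotaxin, rose by 0.63 (SE 0.11, adjusted p = 0.0328), from 9.13, 9.0 and 8.82 in PMd to 9.55, 9.88 and 9.39 in M1. That was 1 of its 3 probe sets, and the brightest did not pass (0.7, adjusted p = 0.0637). QKI, an RNA-binding protein that controls myelin mRNAs, was higher by 0.62 on 1 of its 7 probe sets (adjusted p = 0.0188). All 7 had that sign, but its brightest one differed by only 0.27 (adjusted p = 0.0944). SEPTIN8, a cytoskeletal septin, was higher by 0.62 on 1 of 4 probe sets (adjusted p = 0.0328), which ranged from 0.04 to 0.62, and ABCA8, a lipid transporter, by 0.85 (adjusted p = 0.0406). For ABCA8, 2 of 3 probe sets had this sign and the brightest read -0.08.

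Among 9 tested genes for structural myelin proteins, 2 were called higher in M1 (BCAS1 and GJB1) and 0 lower. Over all genes, counted by the probe set with the highest mean, 21 (0.209%) were called higher and 23 (0.229%) lower. The list's median difference was 0.56, and 8 of 9 members were positive. It was 0.33 in animal 1, 0.79 in animal 2 and 0.62 in animal 3. The genes that did not pass differed by 0.72 for PLLP (plasmolipin, adjusted p = 0.0867), 0.6 for MAL (adjusted p = 0.0951), 0.56 for HAPLN2 (adjusted p = 0.0867), 0.5 for CD9 (adjusted p = 0.301) and 0.45 for MBP (adjusted p = 0.218). MBP, myelin basic protein, read 13.44, 13.39 and 13.18 in PMd and 13.59, 14 and 13.76 in M1, so its arrays did not overlap although the test was not passed. CNP, an enzyme of the myelin sheath, stood at -0.02. Summed over the 9 genes, intensity ranged from 20571 to 27284 on the M1 arrays and from 15697.1 to 19710.4 on the PMd arrays, without overlap. On this linear scale the intense MBP weighs heavily. Sums also stood apart for the lipid and cholesterol genes below (7100.8 to 8731.3 in M1, 6114.1 to 6934.6 in PMd), whose median was 0.09. So did those of layer 5 markers (8275.6 to 9765.3 and 6745.1 to 8066.8), whose median was -0.02.

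Of 17 genes of oligodendrocyte maturation 0 were called by their probe set of highest mean. Their median was 0.51, and 16 of 17 were positive. GPR37, a receptor of maturing oligodendrocytes, differed by 0.69 (adjusted p = 0.0635), and SOX10, a transcription factor of the lineage, by 0.55 (adjusted p = 0.0867). The only member below 0 was TCF7L2 at -0.07. In 5 of these genes all M1 arrays lay above all PMd arrays, against 60 (0.597%) of all genes. The summed intensity of the 17 genes overlapped, at 7521.2 to 12130.2 in M1 and 4956.9 to 7623.5 in PMd. Oligodendrocyte precursor markers were close to the centre of all genes, with a median of 0.06 over 9 genes and 0 called. Their highest member, OLIG2, a transcription factor that mature cells also express, stood at 0.26 (adjusted p = 0.275).

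Of 16 genes of myelin lipid and cholesterol synthesis 0 were called by their probe set of highest mean, and the median was 0.09. The members above 0.4 were UGT8, PLEKHH1 (0.72, adjusted p = 0.0708), ASPA, which supplies acetate for myelin lipids (0.55, adjusted p = 0.163), ELOVL1, a very long chain fatty acid elongase (0.48, adjusted p = 0.103), and GAL3ST1, which makes sulfatide (0.43, adjusted p = 0.103). The cholesterol enzymes SQLE and DHCR7 differed by 0.13 and -0.11, and the regulator SREBF2 by -0.1. SLC25A17, a carrier of the peroxisomal membrane, was called at 0.88 (SE 0.16, adjusted p = 0.0406), with 8.01, 7.88 and 7.94 in PMd and 8.59, 9.09 and 8.77 in M1. Its 3 probe sets ranged from 0.06 to 0.88, and 2 were called.

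**Figure D2:**
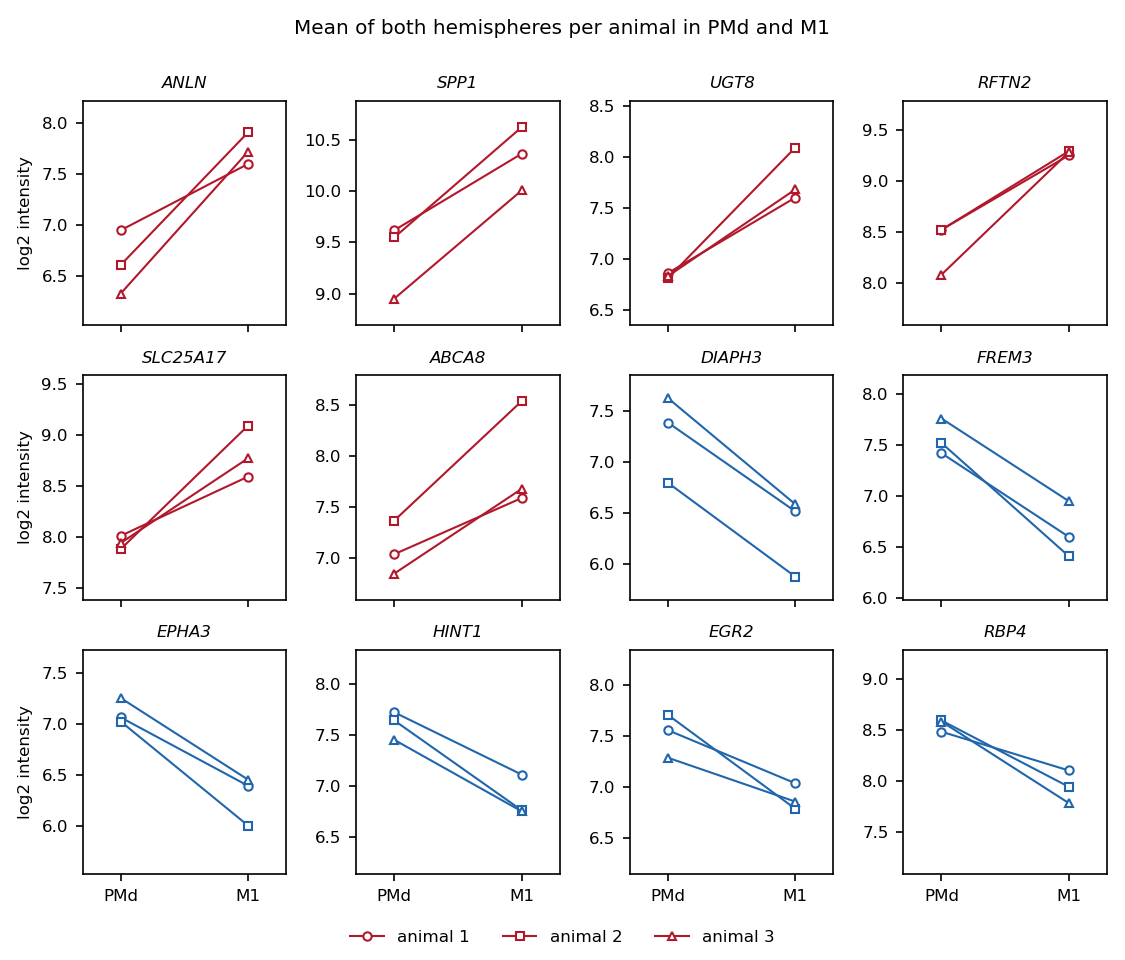
Mean log2 intensity of both hemispheres (vertical axis) in PMd and M1 for the 6 genes with the largest called difference each way. Each line joins the areas of 1 animal (circle animal 1, square animal 2, triangle animal 3), with red for genes higher and blue for genes lower in M1. Every line runs the way of its colour, because the genes were chosen by the same sign in all animals.

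NEFH and SPP1, known from large projection neurons, were both called higher in M1. NEFH, the heavy neurofilament subunit, gave one of the 3 smallest adjusted p-values among the named genes. It read 10.72, 10.28 and 10.2 in PMd and 11.48, 10.99 and 11.2 in M1, a difference of 0.82 (SE 0.08, adjusted p = 0.00187). PMd of animal 1 was nearly as high as M1 of animal 2, so the arrays of both areas overlapped, and the difference appears within animals. SPP1, which encodes the secreted phosphoprotein osteopontin and is strong in large motor neurons, read 9.62, 9.55 and 8.95 in PMd and 10.37, 10.63 and 10.01 in M1. Its arrays did not overlap (0.96, SE 0.13, adjusted p = 0.0188). Leaving out animal 2 gave differences of 0.88 for NEFH (adjusted p = 0.138) and 0.91 for SPP1 (adjusted p = 0.145), and both passed without animal 1 or animal 3.

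NEFH was the only 1 of 10 neurofilament and axon cytoskeleton genes called, and the list's median was 0.01. LGALS1, galectin-1, was called at 0.65 (SE 0.12, adjusted p = 0.0406), with 7.73, 7.59 and 7.0 in PMd and 8.44, 8.41 and 7.43 in M1. In animal 3 both areas were low, and the arrays overlapped. A brighter LGALS1 probe set differed by 0.57 (adjusted p = 0.0785). VAMP1, a vesicle protein of fast-firing neurons, differed by 0.32 (adjusted p = 0.0824).

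The list of layer 5 and corticospinal markers had 2 genes called higher (NEFH and SPP1) and 3 called lower (DIAPH3, RBP4 and TSHZ2) out of 16. Over all genes 0.209% were called higher and 0.229% lower. The list's median was -0.02. DIAPH3, a formin that builds actin filaments, read 7.39, 6.8 and 7.63 in PMd and 6.52, 5.88 and 6.59 in M1. The areas did not overlap on any array, and M1 was lower (-0.95, SE 0.1, adjusted p = 0.00187). RBP4, a retinol carrier, read 8.48, 8.59 and 8.58 in PMd and 8.1, 7.94 and 7.78 in M1 (-0.61, SE 0.09, adjusted p = 0.0188). TSHZ2, a zinc finger transcription factor, differed by -0.54 (adjusted p = 0.0328). FEZF2, the transcription factor that specifies subcortical projection neurons, stood at 0.23 (adjusted p = 0.467), and CRYM, a thyroid hormone-binding protein of deep layers, at -0.23 (adjusted p = 0.293). Neither passed the test. The non-overlapping myelin sums given above were also higher in M1 than in PMd, and their part in these differences was not tested. The summed intensity of 14 pan-neuronal markers overlapped, at 38497.8 to 40762.3 in M1 and 38923.6 to 43130.2 in PMd.

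Of 8 genes known to be enriched in primate motor or sensory cortex, 2 were called higher in M1 (NEFH and SPP1, counted above) and 0 lower. Over all genes the shares were 0.209% and 0.229%, and the list's median was 0.33. This list and its members were chosen with earlier results of these data known. PVALB, parvalbumin, the calcium buffer of fast-spiking interneurons, read 9.0, 8.91 and 8.33 in PMd and 9.46, 9.26 and 8.9 in M1. Its difference of 0.46 did not pass (SE 0.1, adjusted p = 0.0778). The potassium channel KCNA1 stood at 0.34 (adjusted p = 0.23) and the sodium channel SCN1A at 0.27 (adjusted p = 0.59).

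Several genes that were higher in M1 belong to none of these lists. RFTN2, a lipid raft protein, read 8.52, 8.52 and 8.08 in PMd and 9.25, 9.29 and 9.28 in M1, nearly the same in M1 of all animals (0.9, SE 0.12, adjusted p = 0.0184). SELENOP, the selenium carrier selenoprotein P, was among the more intense called genes, at 10.71, 11.08 and 10.88 in PMd and 11.21, 11.92 and 11.53 in M1 (0.66, SE 0.08, adjusted p = 0.0151). REEP3, which shapes endoplasmic reticulum, was higher by 0.77 (adjusted p = 0.0328). NR1H4, the farnesoid X receptor known from liver, was higher by 0.75 (adjusted p = 0.0247), and CRP, the acute phase protein, by 0.65 on 1 of 2 probe sets (adjusted p = 0.0406). CLIC4, an intracellular chloride channel protein, was higher by 0.61 (adjusted p = 0.0406). That was 1 of its 3 probe sets, which ranged from 0.22 to 0.61. DOCK10, an exchange factor for small GTPases, was higher by 0.56 (adjusted p = 0.0433). DDX24, an RNA helicase, was called at 0.65 (adjusted p = 0.0328), but only 1 of its 3 probe sets had this sign. Without right PMd of animal 3, 25 of the 40 most changed genes kept their call, and without left M1 of animal 2, 34 did.

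On the lower side, FREM3 and EPHA3 stood beside DIAPH3. FREM3, an extracellular matrix protein, read 7.42, 7.52 and 7.76 in PMd and 6.6, 6.41 and 6.95 in M1 (-0.92, SE 0.11, adjusted p = 0.00623). EPHA3, a receptor for ephrins that guide axons, read 7.06, 7.02 and 7.25 in PMd and 6.39, 6.0 and 6.45 in M1 (-0.83, SE 0.08, adjusted p = 0.00187). All 6 M1 arrays lay below all 6 PMd arrays for both. The difference was largest in animal 2 for FREM3 and EPHA3. Without animal 2 the difference was -0.82 for FREM3 (adjusted p = 0.251), -0.74 for EPHA3 (adjusted p = 0.248) and -0.96 for DIAPH3 (adjusted p = 0.138), and all 3 passed without animal 1 or animal 3.

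EPHA3 was the only gene called among 38 axon guidance ligands and receptors, whose median was -0.06. The ephrin ligand EFNB3 differed by -0.31 (adjusted p = 0.0568), without overlap of the arrays. UNC5B, a netrin receptor, lay on the other side at 0.38 (adjusted p = 0.0808). FREM3 was likewise the only gene called among 16 genes of perineuronal nets and matrix, with a median of 0. Aggrecan (ACAN), the main proteoglycan of perineuronal nets, differed by 0.79 without overlap of the arrays but did not pass (SE 0.17, adjusted p = 0.0778). It read 8.9, 8.94 and 8.41 in PMd and 9.44, 9.85 and 9.32 in M1. The protease ADAMTS4 also differed by 0.79 (adjusted p = 0.0585).

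Immediate early genes are those that neurons switch on within minutes of strong activity. Of 23 genes 3 were called lower in M1 (EGR2, EGR4 and FOS) and 0 higher, against 0.229% and 0.209% of all genes. Of the 23, 2 were positive, against 46.9% of all genes. The median was -0.26, and it was -0.14, -0.35 and -0.2 in animals 1, 2 and 3. EGR2, a zinc finger transcription factor, read 7.56, 7.71 and 7.29 in PMd and 7.04, 6.79 and 6.86 in M1 (-0.62, SE 0.11, adjusted p = 0.0414). A second EGR2 probe set differed by only -0.15 and was not called. EGR4, of the same family, read 8.24, 8.59 and 8.07 in PMd and 7.87, 7.76 and 7.62 in M1 (-0.55, SE 0.09, adjusted p = 0.0258). FOS, a subunit of the AP-1 factor, read 7.71, 8.17 and 7.65 in PMd and 7.37, 7.35 and 7.15 in M1 (-0.55, SE 0.1, adjusted p = 0.0406). PMd of animal 2 was the highest value of all 3 genes, and M1 varied little between animals. All 6 M1 arrays lay below all 6 PMd arrays in 7 of the 23 genes, against 85 (0.846%) of all genes.

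Of the immediate early genes that did not pass, NPAS4, a neuron-specific activity-dependent factor, differed most, by -0.68 (adjusted p = 0.0568), and BDNF, the neurotrophin, differed by -0.51 (adjusted p = 0.0778). NR4A1 stood at -0.41 (adjusted p = 0.0601) and ARC at -0.28 (adjusted p = 0.193). The members above 0 were SGK1 (0.33, adjusted p = 0.0783), a kinase, and NR4A2 (0.07). Without animal 2 the difference was -0.42 for FOS and -0.48 for EGR2 (both adjusted p = 1) and -0.41 for EGR4 (adjusted p = 0.847). The summed intensity of the 23 genes was 8223 to 8816.6 on the M1 arrays and 9041.7 to 11810.9 on the PMd arrays, which did not overlap.

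**Figure D3:**
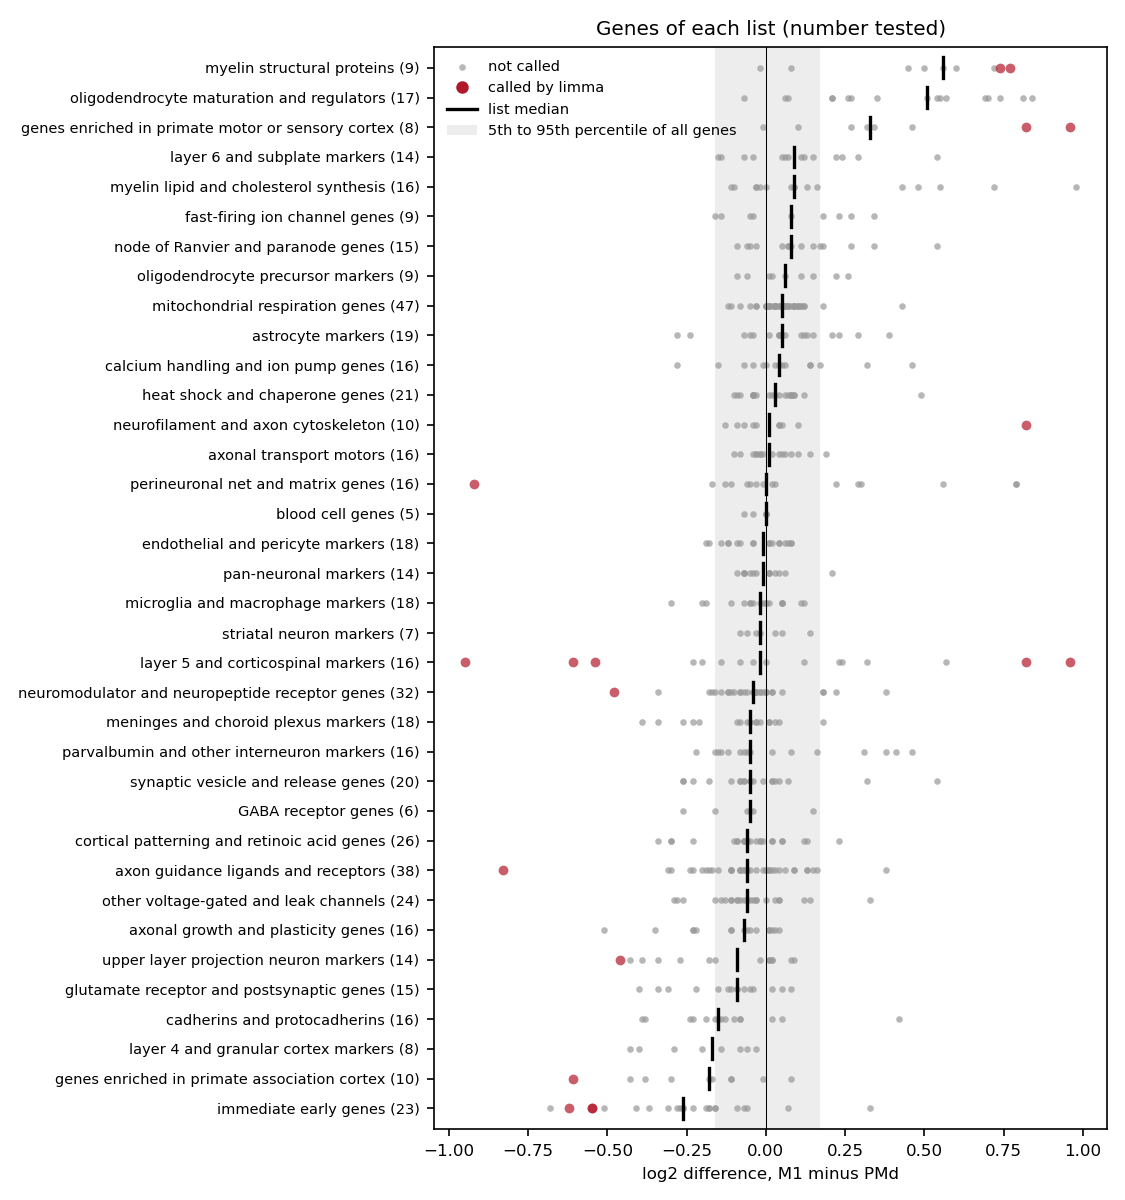
Log2 difference between M1 and PMd (horizontal axis) for the tested genes of each list (rows, number tested in brackets). Grey dots are not called, red dots are called by limma, black bars are list medians, and the shaded band spans -0.16 to 0.17, the 5th to 95th percentile of all genes. The medians of the structural myelin (0.56), oligodendrocyte maturation (0.51) and motor or sensory cortex (0.33) lists lie right of the band. Those of the immediate early genes (-0.26) lie left of it, as do, by little, those of association cortex genes (-0.18) and layer 4 markers (-0.17).

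Among markers of granular and upper layers 1 gene, C1QL2, was called. Of 8 layer 4 and granular cortex markers 0 were called, 0 were positive and the median was -0.17. CUX2, a homeobox factor of upper layers and layer 4, read 8.92, 9.03 and 8.9 in PMd and 8.66, 8.38 and 8.51 in M1 (-0.43, adjusted p = 0.0778). RORB, the nuclear receptor that marks layer 4, differed by -0.2 (SE 0.12, adjusted p = 0.827). Of 14 upper layer projection neuron markers 1 was called lower in M1 and 0 higher, with a median of -0.09, and 6 were positive, against 46.9% of all genes. In 3 of the 14 all M1 arrays lay below all PMd arrays, against 85 (0.846%) of all genes. Their summed intensity did not overlap, at 7131.6 to 8311.2 in M1 and 8466.8 to 9473.8 in PMd. That of the layer 4 markers overlapped, at 1789.6 to 2153.9 in M1 and 2126 to 2481.6 in PMd. C1QL2, a secreted synaptic protein, read 8.29, 8.72 and 8.43 in PMd and 7.94, 8.23 and 7.9 in M1 (-0.46, SE 0.07, adjusted p = 0.0281). PCDH8, an activity-regulated protocadherin, stood at -0.39 (adjusted p = 0.0904). Among 14 layer 6 and subplate markers 0 were called and the median was 0.09. Their highest member was SYT6, a synaptotagmin, at 0.54 (adjusted p = 0.0778).

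Of 10 genes known to be enriched in primate association cortex, 1 was called lower in M1 (RBP4, counted above) and 0 higher. Their median was -0.18. Over all genes 0.229% were called lower. PNMA5, which marks association areas in monkeys, read 7.71, 7.64 and 7.81 in PMd and 7.36, 7.05 and 7.47 in M1, without overlap of the arrays (-0.43, adjusted p = 0.0571). The serotonin receptor HTR2A stood at -0.18 (adjusted p = 0.857) and the guidance factor SLIT1 at -0.17 (adjusted p = 0.891). Their SEs were 0.11, so differences of this size could not be told from 0.

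The remaining genes called lower were spread over many functions. OPRL1, the nociceptin receptor, was the only gene called among 32 neuromodulator and neuropeptide receptors, whose median was -0.04. It read 10.56, 10.58 and 10.68 in PMd and 10.21, 10.06 and 10.12 in M1 (-0.48, SE 0.07, adjusted p = 0.0188). Its 3 probe sets ranged from -0.48 to -0.07, and 1 was called. TAFA1, a secreted brain protein, varied least among these genes, at 9.22, 9.25 and 9.28 in PMd and 8.75, 8.68 and 8.76 in M1 (-0.52, SE 0.08, adjusted p = 0.0233). Its arrays did not overlap, nor did those of OPRL1. ANKRD6, a regulator of Wnt signalling, was lower on all 3 probe sets (-0.57, adjusted p = 0.0247). CHP2, a calcineurin B homologue, was lower as well (-0.54, adjusted p = 0.0316), and PON2, a paraoxonase, differed by -0.52 (adjusted p = 0.0406). PLAC9, a small secreted protein, differed by -0.56 (adjusted p = 0.0205) and SH2D4B, an adaptor protein, by -0.59 (adjusted p = 0.0328). BTG3, an antiproliferative factor, differed by -0.42 (adjusted p = 0.0423) and MLIP by -0.43 (adjusted p = 0.0328). HINT1, a nucleotide hydrolase, was called at -0.73 (adjusted p = 0.0188), but the brightest of its 3 probe sets read 0.14. WDR86 was called at -0.44 (adjusted p = 0.0423) on 1 of 2 probe sets, and the other read 0.

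Lists of channels, synapses and respiration held 0 called genes each. The 9 fast-firing channel genes had a median of 0.08 and the 24 other voltage-gated and leak channels one of -0.06. The 16 parvalbumin and other interneuron markers had a median of -0.05, with CRH at 0.38 (adjusted p = 0.124) and the GABA-synthesising enzyme GAD2 at 0.41 (adjusted p = 0.236). Glutamate receptor and postsynaptic genes (15) had a median of -0.09, and the AMPA receptor subunit GRIA4 stood at -0.34 (adjusted p = 0.0808). GABA receptor genes (6) and synaptic vesicle genes (20) both had a median of -0.05. The 15 genes of the node of Ranvier had a median of 0.08, with the spectrin SPTBN1 at 0.54 (adjusted p = 0.0775). Axonal transport motors (16), calcium handling genes (16) and chaperones (21) had medians of 0.01, 0.04 and 0.03, and the small heat shock protein CRYAB stood at 0.49 (adjusted p = 0.105). Of 47 mitochondrial respiration genes 39 were positive, but the median was only 0.05. The 16 cadherins and protocadherins had a median of -0.15, 3 of them being positive, and the 26 patterning and retinoic acid genes one of -0.06. The 16 axonal growth and plasticity genes had a median of -0.07, and GAP43, the growth cone protein, stood at 0.01 (adjusted p = 0.999).

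Markers of other cells the pieces could hold were close to equal between areas, and 0 of them were called. Medians were 0.05 for 19 astrocyte, -0.02 for 18 microglia and macrophage, -0.01 for 18 endothelial and pericyte, -0.05 for 18 meningeal and choroid plexus, -0.02 for 7 striatal and 0 for 5 blood cell genes. Summed intensity overlapped between M1 and PMd in each of these lists. For astrocytes it was 36602 to 41586.6 in M1 and 34571.4 to 38928.1 in PMd, and for microglia 3916 to 4239.6 and 4064.3 to 4293.6. The astrocyte gene S100B, which oligodendrocytes also express, differed by 0.39 (adjusted p = 0.358), and the leukocyte tetraspanin CD53 by -0.3 (adjusted p = 0.103).

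Levels in the other areas placed these differences within the frontal lobe. They share the M1 and PMd samples with the comparison above and are given as a description. Going from A46 to PMv, PMd and M1, mean log2 intensity was 8.06, 9.14, 9.37 and 10.34 for SPP1. ANLN read 5.19, 6.46, 6.63 and 7.74 in the same order, and RFTN2 6.9, 7.89, 8.37 and 9.27. For these genes mean PMd stood between PMv and M1, with a gap to PMv of 0.23 for SPP1, 0.17 for ANLN and 0.48 for RFTN2. None of these gaps passed in limma (SE 0.13, 0.21 and 0.12, adjusted p = 0.854, 0.9 and 0.806). EPHA3 ran the other way, at 7.62, 7.2, 7.11 and 6.28, as did FREM3 at 8.02, 7.56, 7.57 and 6.65. PLAC9 was nearly level in A46 (8.06), PMv (8.03) and PMd (8.09) and lower in M1 (7.53), and LGALS1 stood at 7.03, 7.34, 7.44 and 8.09.

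DIAPH3 and FOS had another profile, with their highest level in PMd. They were not alone, because 7 of the 42 probe sets called lower in M1 had their highest mean in PMd. From A46 to PMv, PMd and M1, EGR4 read 8.25, 7.88, 8.3 and 7.75. In that order of areas DIAPH3 read 6.03, 6.39, 7.27 and 6.33. FOS read 7.76, 7.04, 7.84 and 7.29, so that A46 was nearly as high as PMd. The test of PMd against PMv, which asks whether M1 differs equally from both premotor areas, called 2 probe sets (0.00758%), and these were the probe sets of DIAPH3 (0.89, SE 0.1, adjusted p = 0.0119) and FOS (0.8, SE 0.1, adjusted p = 0.0307). An unadjusted p under 0.05 was reached by 1425 probe sets. Without animal 2 or without left M1 of animal 2 neither was called, and without animal 3, which leaves males only, 1398 probe sets were.

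**Figure D4:**
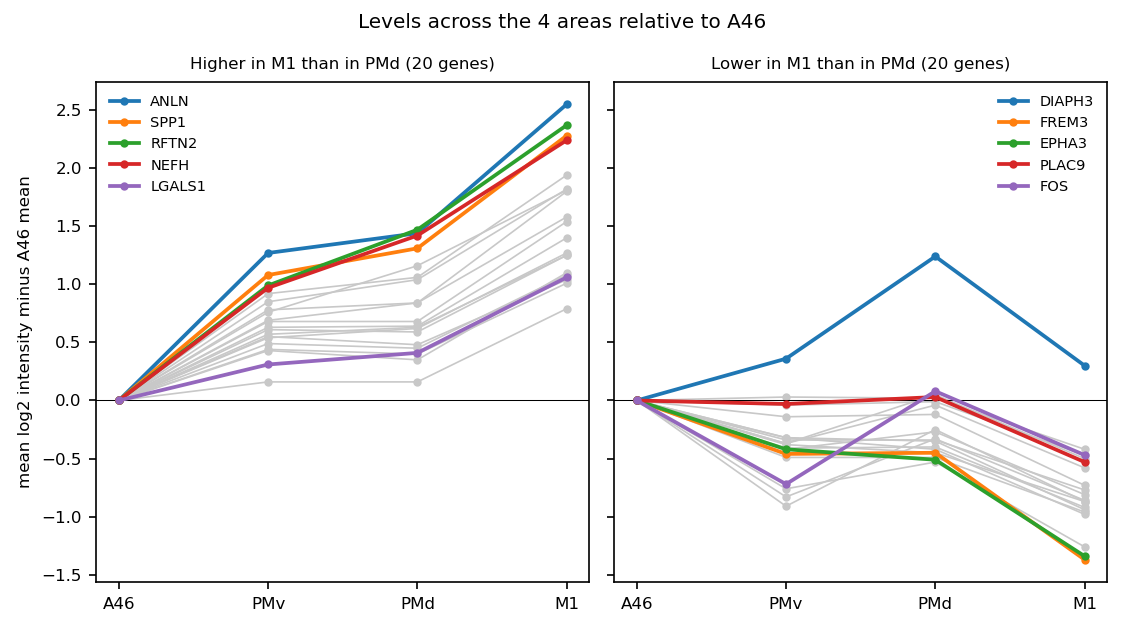
Mean log2 intensity over 3 animals relative to the A46 mean (vertical axis) in A46, PMv, PMd and M1 for the 20 genes with the largest called difference each way. Coloured lines are the named genes and grey lines the others, and DIAPH3 peaks in PMd while SPP1, RFTN2 and NEFH rise from A46 to M1.

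The difference between areas was also compared between hemispheres. The interaction of hemisphere and area called 0 of 26383 probe sets (0%) in limma, with 456 at an unadjusted p under 0.05 and a smallest adjusted p of 1. The called probe sets had a median difference of 0.61 in the left and 0.66 in the right hemisphere on the higher side, and of -0.48 and -0.52 on the lower side. Tested alone, the left hemisphere gave 1 called probe set and the right 214. The medians above come from probe sets called on the average of both hemispheres, which favours like sizes. DIAPH3 was -0.7 on the left (adjusted p = 0.332 with left arrays alone) and -1.19 on the right, with an unadjusted interaction p of 0.0125 in limma and an adjusted p of 1. It was lower in M1 in all 6 hemisphere pairs, and so were FREM3, EPHA3, EGR2, EGR4 and FOS. ANLN, SPP1, UGT8, NEFH and GJB1 were higher in all 6. All of these genes were called on the same values, which favours agreement of the pairs.

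**Figure D5:**
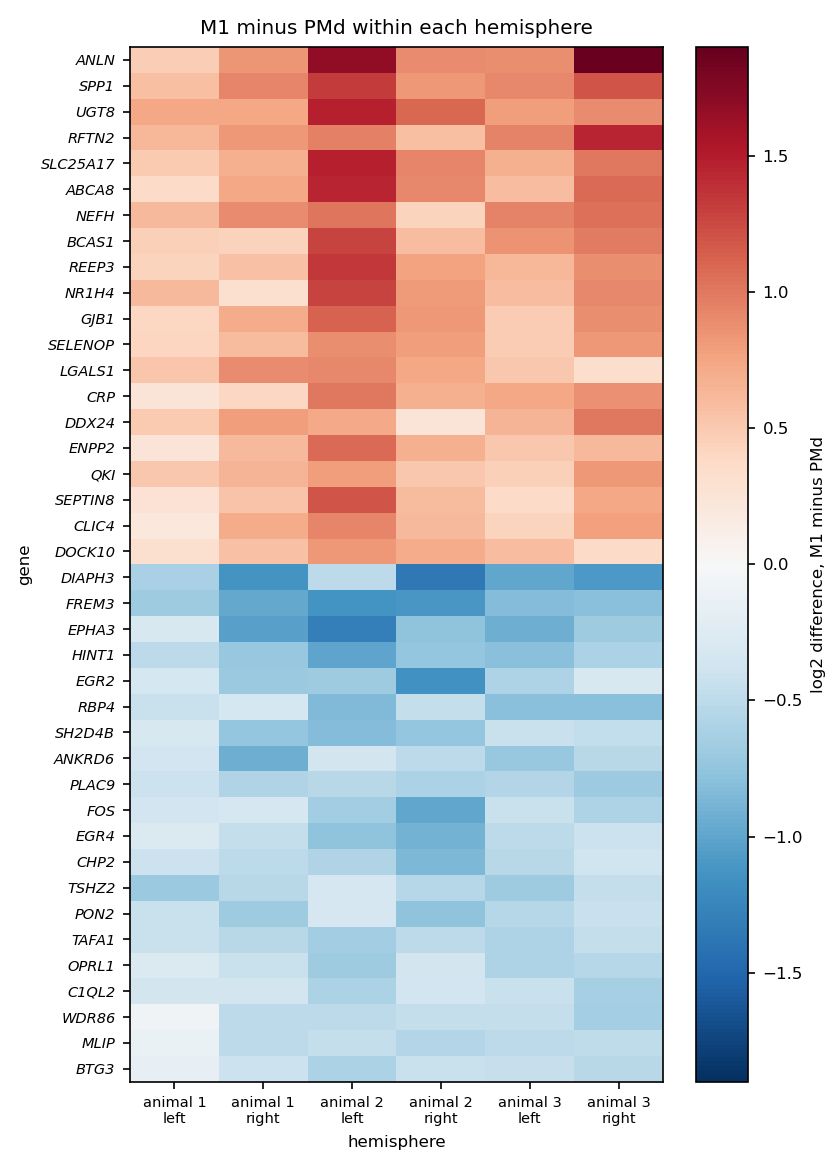
Log2 difference between M1 and PMd within each hemisphere of each animal (columns) for the 20 genes with the largest called difference each way (rows), with red for higher and blue for lower in M1. The colour bar gives the log2 scale. All rows keep 1 colour across the 6 pairs, which the choice of called genes favours.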

How the data were processed

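The authors deposited linear RMA intensity values for 24 one-colour Affymetrix Rhesus arrays of biotin-labelled total RNA; RMA is named per the submitters' processing notes, without a version or the set of arrays it was run on. These intensities were converted to log2 (0 values lay below a floor of 1). Control probe sets (99 of 52865) were removed. Of the remaining 52766, 24956 carried 1 gene symbol, 361 several and 27449 none in GEO's platform annotation. Coordinates are left out because no genome build is named. The test kept 26383 probe sets whose mean log2 reached 5.62 (intensity 49.3, the median of all). List counts use, for each gene, its probe set of highest mean.

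Hemispheres were averaged per animal and area. limma 3.58.1 (R 4.3.3; lmFit and eBayes with an intensity trend) was fitted to the 12 means of all 4 areas with area and animal as terms (6 residual and 6.98 prior degrees of freedom). Tests were two-sided, and a Benjamini-Hochberg adjusted p under 0.05 over all probe sets was called. Hemisphere by area was fitted on 24 arrays, blocking on the pair of pieces from 1 animal and area. Because both areas come from the same animals, numbers in the titles pair them. Deviations of M1 and PMd from their area means correlated at 0.781, 0.735 and 0.85 within animals and at -0.561 to -0.151 between animals. Centring on the mean of 3 animals itself pushes the values between animals to the negative side. Named genes were up to 20 each way with the largest called log2 difference of the same sign in 3 animals, up to 4 members per list with the smallest p, and a fixed set. SYT2 of that set had no probe set. A few list members outside this rule were named to describe their list. Members and lists were chosen with earlier results of these data known. Lists are described by counts and medians, with no set test. Alternatives covered the block, the samples, hemispheres, scaling, filters, offset and prior.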

Additional observations from a re-analysis of the deposited data

Results flagged for a closer look

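In 198 groups of 6 arrays (the named genes in M1 and in PMd), 13 had an end array whose gap to the next was more than 0.625 of the group's range, and chance flags about 1 in 20 groups. Right PMd of animal 3 was the lowest PMd array for RFTN2 (7.78, next 8.38), CRP (6.4, next 6.82), MBP (12.97, next 13.33), GAD2 (7.5, next 8.06) and ACAN (8.15, next 8.67). Left M1 of animal 2 was the highest M1 array for SLC25A17 (9.38, next 8.85), NR1H4 (8.58, next 8.17), FEZF2 (8.89, next 8.57), OLIG2 (8.79, next 8.58), GPRC5B (11.04, next 10.69) and SGK1 (7.94, next 7.71). For DIAPH3 the right M1 array of animal 2 was lowest (5.51, next 6.25), and for MLIP the left M1 array of animal 1 was highest (6.93, next 6.69). In each case but MLIP the end array lies on the side that widens the difference between the areas. Without both of the arrays that recur here, 12 of the 40 most changed genes were still called.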

How the results depend on the processing

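Of the 40 genes with the largest called differences none changed direction in the alternatives where it was tested (27 of them under the upper quartile filter). These genes were chosen by the same sign in 3 animals, so leaving out 1 animal could not change their direction. The count of 87 was 33, 0 and 239 without animals 1, 2 and 3 (0 to 239), and the sharing of the spread and the pairing mattered as much. With no replicate block, which leaves out the pairing by animal, 0 probe sets were called for M1 against PMd (1017 at an unadjusted p under 0.05) and 0 for PMd against PMv. The count was 1582 with M1 and PMd alone, which leaves fewer residual degrees of freedom, 433 with 24 arrays and the pair as a random block, 1 with left and 214 with right arrays, 234 after median centring (131 higher, 103 lower), 252 after a further quantile normalisation, 647 with the interquartile range as a covariate and 50 with no intensity trend. It was 41 without right PMd of animal 3 and 16 without both arrays named above. The 2 calls for PMd against PMv became 0 to 1398 with 1 animal left out, 0 and 1 with left and right arrays, 21 with 24 arrays, 1 after quantile normalisation and with the covariate, and 0 with the upper quartile filter, without left M1 of animal 2 and without both arrays. GAP43, at 0.01, lay at -0.04 to 0.07 with 1 animal left out and turned to -0.04 without animal 3, to -0.01 with the covariate and without left M1 of animal 2, and to -0.02 without both arrays. The causes were not tested. No filter, an offset of 16 and a robust prior left the count of 87 within 1.5 times, and the interaction stayed at 0 in the alternatives run. Signal near the filter limits the dimmer genes, among them QKI, WDR86 and TSHZ2.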

Other observations

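Other named genes called between M1 and PMd, chosen here after their values were seen, were higher in M1 for G6PC1, a catalytic subunit of glucose-6-phosphatase known from liver (0.53, limma adjusted p = 0.0433), KMO, an enzyme of the kynurenine pathway (0.53, adjusted p = 0.0391), BSG, basigin, a partner of lactate transporters (0.43, adjusted p = 0.0328), GPRC5B (0.41, adjusted p = 0.0406) and HS3ST2, a heparan sulfate sulfotransferase (0.4, adjusted p = 0.0386). CLDND1, a claudin-like protein, was called on 2 probe sets (0.49 and 0.45). Lower in M1 were NECTIN1, an adhesion molecule (-0.33, adjusted p = 0.0417), and NWD2 (-0.42, adjusted p = 0.0328). Of the 87 called probe sets, 12 of the higher and 13 of the lower carry no single gene symbol.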
